A study of Homo sapiens with 9 samples.

Results

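PARP1, TIPARP (the gene of PARP7) and 8 related PARP genes were followed across AHR-depleted and control MDA-MB-231 cells. The members, TIPARP, PARP1, PARP2, PARP3, PARP4, PARP6, PARP8, PARP10, PARP11 and PARP16, were taken by gene symbol from the deposited table of read counts, which gave 10 of 60649 rows, 1 for each gene. MDA-MB-231 cells are a long-used human line of triple-negative breast cancer, the subtype without estrogen receptor, progesterone receptor or amplified HER2. All libraries came from cells that had been transduced with a lentiviral vector: 3 with the control vector pLKO-GFP, 3 with the hairpin shAHR#2 and 3 with the hairpin shAHR#3, both against AHR. By the study's methods, cells that survived puromycin were pooled, so each group was a selected population rather than a single clone, and the labels name no added AHR ligand or PARP inhibitor. The hairpins are called here by their deposited labels, since the paper numbers its constructs otherwise. The labels do not say whether replicates were separate cultures, so p-values measure the spread between these libraries, which may be technical.

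PARP enzymes transfer ADP-ribose from NAD+ to proteins, either as long chains, as PARP1 and PARP2 do at DNA breaks, or as single units, as most other members do. PARP1 is the main target of clinical PARP inhibitors such as talazoparib. TIPARP is a classical AHR target gene: its product, a mono-ADP-ribosyltransferase, modifies AHR and dampens AHR signaling, and it is also known as a brake on the interferon response.

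AHR regulates its targets together with ARNT through DNA elements with the core GCGTG. The promoters of a few members are shown to place this core beside the measurements: TIPARP as the known target, PARP1, PARP6 as the member that fell most with shAHR#2, and PARP16 as a member that fell without a core in its window. Each sequence is the RefSeq window of 300 bases on GRCh38.p14, 250 before and 50 after the annotated start, written along the gene, with GCGTG or its reverse complement CACGC in capitals. The TIPARP window is chr3:156674340-156674639 (plus strand), that of PARP1 chr1:226408044-226408343 (minus strand), that of PARP6 chr15:72272505-72272804 (minus strand) and that of PARP16 chr15:65286834-65287133 (minus strand).
TIPARP: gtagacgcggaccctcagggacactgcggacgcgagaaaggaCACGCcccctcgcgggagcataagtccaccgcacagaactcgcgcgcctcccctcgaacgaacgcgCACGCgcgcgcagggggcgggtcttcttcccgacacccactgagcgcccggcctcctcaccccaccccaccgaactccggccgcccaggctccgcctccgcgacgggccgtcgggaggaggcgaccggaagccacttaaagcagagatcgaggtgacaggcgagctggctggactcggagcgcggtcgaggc
PARP1: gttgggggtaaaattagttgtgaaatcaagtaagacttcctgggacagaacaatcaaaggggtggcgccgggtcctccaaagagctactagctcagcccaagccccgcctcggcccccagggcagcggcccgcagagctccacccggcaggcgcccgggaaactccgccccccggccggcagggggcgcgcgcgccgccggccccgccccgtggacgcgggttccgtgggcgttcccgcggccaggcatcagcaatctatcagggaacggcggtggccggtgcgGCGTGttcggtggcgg
PARP6: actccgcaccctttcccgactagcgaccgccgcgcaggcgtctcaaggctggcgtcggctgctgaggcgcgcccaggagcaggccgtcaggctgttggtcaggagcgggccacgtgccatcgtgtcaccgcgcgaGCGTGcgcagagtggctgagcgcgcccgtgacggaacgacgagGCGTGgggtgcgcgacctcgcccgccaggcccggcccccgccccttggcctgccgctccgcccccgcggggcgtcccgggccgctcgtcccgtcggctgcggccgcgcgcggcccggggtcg
PARP16: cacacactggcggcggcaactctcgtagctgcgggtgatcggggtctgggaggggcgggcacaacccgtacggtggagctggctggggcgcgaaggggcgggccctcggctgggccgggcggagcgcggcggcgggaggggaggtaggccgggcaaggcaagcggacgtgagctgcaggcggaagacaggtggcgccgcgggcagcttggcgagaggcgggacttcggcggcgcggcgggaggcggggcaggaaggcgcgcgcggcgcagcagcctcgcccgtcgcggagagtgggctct

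In TIPARP the core was found 208 and 142 bases before the start, both times on the opposite strand, while the other RefSeq windows of the gene held none. PARP6 held it 115 and 72 bases before the start, and PARP1 held it 34 bases after the start. Of the members not shown, PARP8, which rose, held it 2 times in the window from 50666387 and 2 times in that from 50667164. PARP2, PARP3 and PARP11, not called against the control, each held it 1 time. Among the members with RefSeq windows (8 of 10, all but PARP4 and PARP10), 7 had the core in at least 1 window, but some have several windows. Counted by window, 8 of the 12 windows of members held it. It is a common word: of 35116 windows of all genes, 36.5% held it at least once and 12.7% at least 2 times. A match describes the letters only and is not a binding site.

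Total counts ranged from 15991396 to 20374460 reads per library, and the members were counted at 58 to 5823 reads per library, so each of the 10 passed the filter on low counts. Values are given as CPM, read counts scaled to a common library size after TMM normalization. AHR, the targeted gene, was at 114, 118 and 121 CPM in the control, 42.5, 40.4 and 41.9 with shAHR#2 and 46.3, 52.1 and 44.5 with shAHR#3. AHR was thus lower in each knockdown library than in any control. Keratin genes of epithelial cells were present (KRT8 at 275 to 389 CPM, KRT18 at 297 to 390 and KRT19 at 96.5 to 177), whereas the epithelial marker EPCAM was low, at 5.26 to 7.15 CPM. KRT19 was 1.71-fold higher with shAHR#2 and 1.22-fold higher with shAHR#3. KRT8 and KRT18 were 1.32-fold and 1.24-fold higher with shAHR#3 and were not called with shAHR#2. CDH1, the epithelial cadherin, ranged from 0.70 to 1.02 CPM in control libraries, and it was higher in shAHR#2 libraries (1.52 to 2.15) and in shAHR#3 libraries (3.68 to 4.59). Of the mesenchymal markers, CDH2 was at no more than 0.514 CPM in any library, while VIM, FN1 and ZEB1 were present and rose with the hairpins. VIM was 1.47-fold higher with shAHR#2 and 1.26-fold higher with shAHR#3, FN1 2.95-fold and 2.10-fold, and ZEB1 1.48-fold and 1.21-fold. PGR had no read in any library and ESR1 was at no more than 0.215 CPM, whereas ERBB2 was read at 60.0 to 75.7 CPM. The endothelial marker PECAM1 was at 2.15 to 2.71 CPM in the control and 10.0 to 12.5 with the hairpins, and the leukocyte marker PTPRC at 0.0565 to 0.200 and 0.716 to 1.77 CPM. The part of these markers in the results was not tested. In bulk RNA, fewer cells that express a gene and less RNA per cell cannot be told apart.

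TIPARP did not follow the AHR targets CYP1A1 and CYP1B1 with shAHR#2, while with shAHR#3 it was lower, as they were. CYP1A1 and CYP1B1, the cytochrome P450 genes by which AHR activity is usually read, fell most with shAHR#2, whereas TIPARP was called lower only with shAHR#3, and there by a small amount. The gene spans 156673235 to 156706770 of chromosome 3, plus strand, with 6 exons in its canonical transcript (GRCh38, GENCODE release 44, as for all positions here). TIPARP was at 88.8, 95.3 and 93.4 CPM in the control, 97.0, 98.5 and 90.7 with shAHR#2, and 81.3, 84.5 and 79.5 with shAHR#3. The shAHR#2 libraries overlapped the control, and all shAHR#3 libraries lay below both other groups. With shAHR#2 the level was 103% ± 4.46 of the control mean (SD, n = 3), a log2 fold change of 0.04 with a standard error of 0.04 (adjusted p = 0.344, from the quasi-likelihood test of edgeR, adjusted after Benjamini and Hochberg over all genes tested). The 95% interval of this change was -0.037 to 0.126. With the same hairpin AHR itself changed by -1.50, CYP1A1 by -2.47 and CYP1B1 by -2.65. With shAHR#3 TIPARP was 88.4% ± 2.71 of the control (log2 fold change -0.18, standard error 0.04, adjusted p = 2.45e-04). The hairpins differed from each other by -0.22 on the log2 scale, shAHR#3 being lower (standard error 0.04, adjusted p = 2.11e-05). Genes with a start within 1 Mb of TIPARP (12 tested) had a median difference of -0.32 between the hairpins. Their medians against the control were 0.21 with shAHR#2 and 0.05 with shAHR#3.

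**Figure D1:**
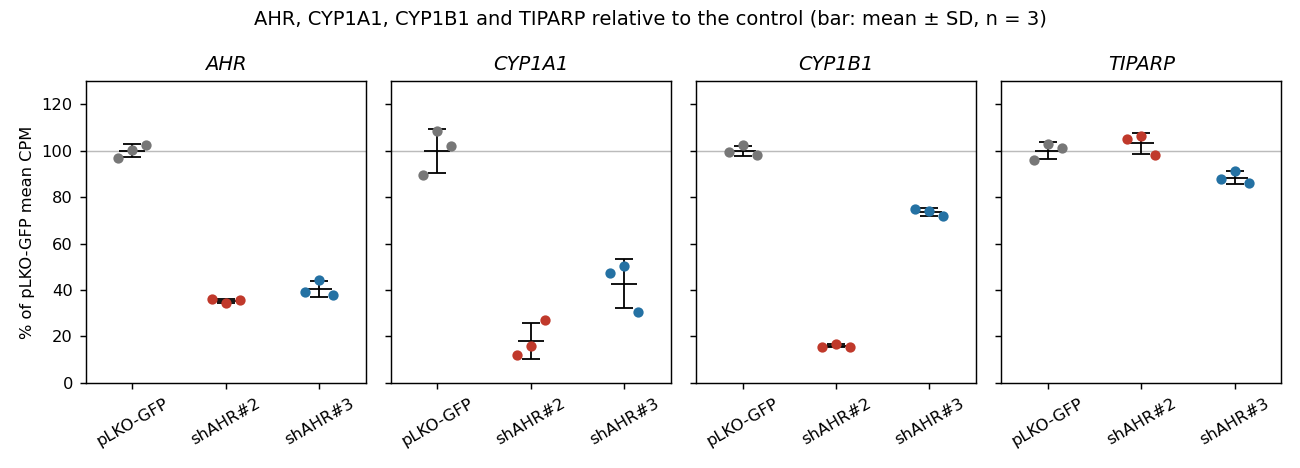
AHR, CYP1A1, CYP1B1 and TIPARP in each library, as a percent of the pLKO-GFP mean CPM (vertical axis), by group (horizontal axis). Points are libraries, and bars are mean ± SD of 3. The first 3 genes lie below the control in all hairpin libraries, whereas TIPARP stays at 103% with shAHR#2 and 88.4% with shAHR#3.

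CYP1A1 was at 4.01, 4.84 and 4.56 CPM in the control, 0.536, 0.706 and 1.20 with shAHR#2, and 2.11, 2.25 and 1.37 with shAHR#3. These are levels of 18.2% ± 7.74 and 42.7% ± 10.6 of the control (SD, n = 3). CYP1B1 fell to 15.95% ± 0.683 with shAHR#2 and to 73.7% ± 1.61 with shAHR#3 (adjusted p = 3.52e-35 and 5.78e-14). Thus the hairpin with the deeper fall of both P450 genes was the one in which TIPARP was not called. AHRR, another AHR target, had too few reads to be tested, at no more than 0.127 CPM in any library. The genes whose pattern over the 9 libraries was most like that of TIPARP were LBR, TMPO and CAPZA2. Their root mean square differences from TIPARP in control-centred log2 CPM were 0.038, 0.041 and 0.042, against a median of 0.25 over 10403 genes compared. They were picked as the 3 smallest differences, so lying below the median was fixed by the choice.

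PARP1, the founding member and the DNA break sensor, fell in both AHR-depleted groups and fell more with shAHR#2. It lies on the minus strand of chromosome 1, from 226360210 to 226408154, with 23 exons. It was at 280, 272 and 268 CPM in the control, 193, 191 and 191 with shAHR#2, and 227, 237 and 228 with shAHR#3. The 3 groups did not overlap, with shAHR#3 between the others. Relative to the control, PARP1 was 70.1% ± 0.327 with shAHR#2 and 84.4% ± 2.01 with shAHR#3 (SD, n = 3). Its log2 fold changes were -0.51 (standard error 0.03, adjusted p = 5.04e-18) and -0.24 (standard error 0.03, adjusted p = 2.03e-09), and the hairpins differed by 0.27 (adjusted p = 1.06e-09). These comparisons share the control libraries. The PARP1 call was lost where a log2 change of at least 1 was required and under no other alternative, and its pseudogene PARP1P1 had at most 1 read per library. Genes with a start within 1 Mb of PARP1 (17 tested) had median log2 fold changes of -0.29 and -0.15. Over the 1437 other tested genes of chromosome 1 the medians were -0.03 and -0.02. SPRTN, PRELID1 and XRN2 had the most similar patterns, with root mean square differences of 0.025, 0.029 and 0.030.

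PARP2 and PARP3, the other PARP enzymes that act at DNA breaks, were not called against the control. PARP2 lies at 20343615 to 20357904 of chromosome 14 and PARP3 at 51942345 to 51948867 of chromosome 3, both on the plus strand. PARP2 was at 55.1, 60.4 and 61.7 CPM in the control, 54.5, 55.3 and 55.4 with shAHR#2, and 61.4, 59.2 and 59.9 with shAHR#3. Control replicate 1 lay among the shAHR#2 libraries, and without it PARP2 was called lower with shAHR#2 (log2 fold change -0.15, adjusted p = 0.00949, against -0.10 and 0.0542 with all libraries). PARP2 was also called lower without shAHR#3 replicate 3, which is in neither group compared (-0.10, adjusted p = 0.0468). It was higher with shAHR#3 than with shAHR#2 by 0.13 (adjusted p = 0.0271), a call lost under DESeq2 (adjusted p = 0.0778) and without shAHR#2 replicate 1 or shAHR#3 replicate 1. PARP3 was at 16.9, 14.1 and 14.99 CPM in the control, 15.5, 16.6 and 19.3 with shAHR#2, and 15.5, 16.3 and 14.8 with shAHR#3, and all groups overlapped. Its 95% intervals were -0.024 to 0.343 with shAHR#2 and -0.156 to 0.205 with shAHR#3. Leaving out control replicate 1 or shAHR#2 replicate 1 brought PARP3 past the threshold with shAHR#2 (0.23 and 0.24, adjusted p = 0.0413 and 0.0420).

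**Figure D2:**
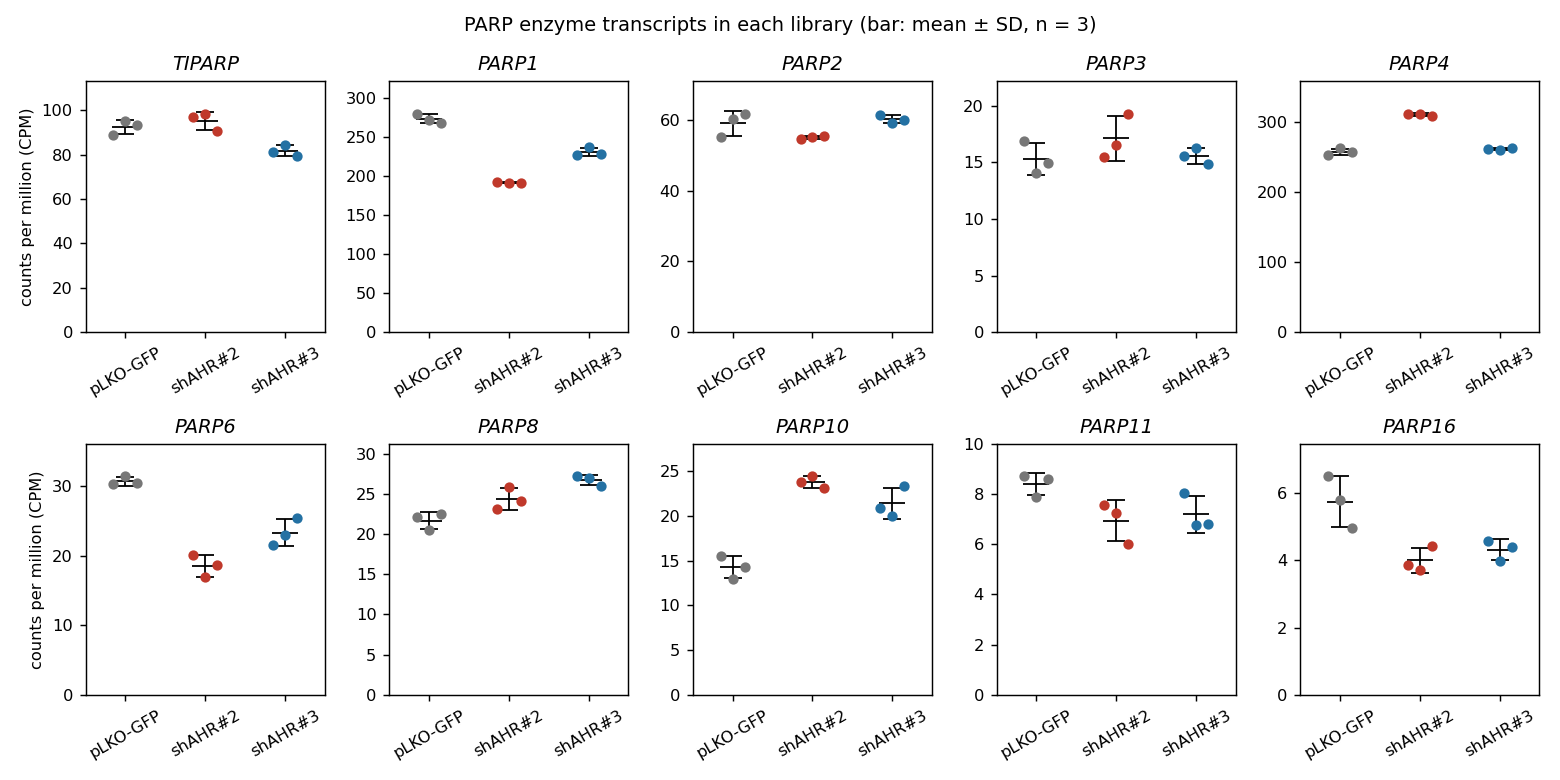
CPM of each member (vertical axes, from 0) in each library, by group (horizontal axes). Points are libraries, and bars are mean ± SD of 3. PARP1 and PARP6 step down from control to shAHR#3 to shAHR#2, PARP10 is higher in all hairpin libraries, and TIPARP is low only with shAHR#3.

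PARP4, the PARP enzyme of vault particles (chromosome 13, 24420931 to 24512778, minus strand), rose with shAHR#2 alone. It was at 254, 263 and 257 CPM in the control, 312, 312 and 309 with shAHR#2, and 262, 261 and 263 with shAHR#3. All shAHR#2 libraries lay above all others. The change was 0.27 on the log2 scale (standard error 0.03, adjusted p = 2.77e-11) with shAHR#2 and 0.02 (95% interval -0.031 to 0.077, adjusted p = 0.496) with shAHR#3. Compared directly, shAHR#3 was lower by 0.25 (adjusted p = 6.78e-10). Genes with a start within 1 Mb of PARP4 (8 tested) had a median difference of -0.18 between the hairpins. Their medians against the control were 0.01 with shAHR#2 and -0.19 with shAHR#3.

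Among the mono-ADP-ribosyltransferases, PARP6 and PARP16 fell. PARP6 (chromosome 15, 72241181 to 72272999, minus strand) had the largest fall of the members with shAHR#2, from 30.2, 31.4 and 30.4 CPM in the control to 20.1, 16.95 and 18.6, and it was at 21.5, 23.0 and 25.3 with shAHR#3. No hairpin library reached the control, and the hairpin groups did not overlap. The log2 fold changes were -0.72 (standard error 0.08, adjusted p = 1.04e-10) and -0.40 (standard error 0.07, adjusted p = 9.92e-06). With shAHR#3 PARP6 was higher than with shAHR#2 by 0.32 (adjusted p = 7.36e-04). A further protein-coding annotation on the same strand shares 356 exonic bases with PARP6 and was listed at 0 reads in all libraries, and how reads in the shared part were assigned is not given in the sources used here. PARP16 (chromosome 15, 65234460 to 65300618, minus strand), which sits in the endoplasmic reticulum membrane and is linked to the unfolded protein response, was the least read member at 6.49, 5.79 and 4.96 CPM in the control. It was at 3.86, 3.72 and 4.43 CPM with shAHR#2 and 4.58, 3.99 and 4.39 with shAHR#3, below every control library. Its log2 fold changes were -0.52 (standard error 0.15, adjusted p = 0.00309) and -0.41 (standard error 0.15, adjusted p = 0.0167). The shAHR#3 call was lost without control replicate 1 (adjusted p = 0.101) or shAHR#3 replicate 2 (adjusted p = 0.0656). PARP6 and PARP16 both lie on chromosome 15, whose 458 other tested genes had a median log2 fold change of 0.006 with shAHR#2 and 0.023 with shAHR#3. Within 1 Mb of PARP6 (10 genes tested) the medians were 0.20 and 0.04. Within 1 Mb of PARP16 (20 genes tested) they were 0.33 and 0.17.

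PARP10 and PARP8 rose. PARP10, a mono-ADP-ribosyltransferase with ubiquitin-interaction motifs, had the largest rise of the members. The gene is on the minus strand of chromosome 8. It went from 15.5, 12.98 and 14.3 CPM in the control to 23.8, 24.4 and 23.2 with shAHR#2 and 20.9, 19.96 and 23.3 with shAHR#3, with no overlap between control and hairpin libraries. Its level was 167% ± 4.37 and 150% ± 12.2 of the control (SD, n = 3), log2 fold changes of 0.74 (standard error 0.08, adjusted p = 4.80e-10) and 0.59 (standard error 0.08, adjusted p = 1.04e-07). The hairpins did not differ past the threshold (-0.15, 95% interval -0.308 to 0.004, adjusted p = 0.113). A limit is that 324 exonic bases of PARP10 overlap GRINA on the opposite strand. The sources used here do not say whether counting used strand, and GRINA, read at 1354 to 2483 counts per library, was itself higher by 0.58 and 0.47. Within 1 Mb of PARP10 (66 genes tested) the median log2 fold changes were 0.12 and 0.21.

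PARP8, a less studied mono-ADP-ribosyltransferase (chromosome 5, 50665899 to 50846519, plus strand), was at 22.1, 20.5 and 22.5 CPM in the control, 23.1, 25.9 and 24.2 with shAHR#2, and 27.2, 27.0 and 26.0 with shAHR#3. It rose by 0.30 on the log2 scale with shAHR#3 (standard error 0.07, adjusted p = 3.21e-04). With shAHR#2 the rise of 0.17 (adjusted p = 0.0403) lay close to the threshold. It was 0.13 and not called without control replicate 2 (adjusted p = 0.178) or shAHR#2 replicate 2 (0.174). At nearly the full size it was also not called without control replicate 1 (0.18, adjusted p = 0.0532), without shAHR#2 replicate 3 (0.17, 0.0598), under DESeq2 (0.17, 0.0669) or with no filter on low counts (0.16, 0.0909). PARP8 lies on chromosome 5, whose 655 other tested genes had median log2 fold changes of -0.48 and -0.26. Of these genes 72.4% and 59.5% were called lower, so the direction of PARP8 was opposite to that of most of its chromosome. The 1 tested gene with a start within 1 Mb of PARP8 changed by -0.34 with shAHR#2 and by 0.14 with shAHR#3. PARP11 (chromosome 12, 3791047 to 3873448, minus strand), a mono-ADP-ribosyltransferase linked to interferon receptor turnover, was at 8.70, 7.89 and 8.61 CPM in the control, 7.56, 7.26 and 6.01 with shAHR#2, and 8.02, 6.75 and 6.79 with shAHR#3. All shAHR#2 libraries lay below the control, yet the change of -0.27 was just short of the threshold (95% interval -0.513 to -0.023, adjusted p = 0.0503), and it passed in 4 of 9 fits that left out 1 library (control replicate 2, shAHR#2 replicate 1, shAHR#3 replicate 1 or shAHR#3 replicate 3). With shAHR#3 it was -0.22 (adjusted p = 0.104).

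**Figure D3:**
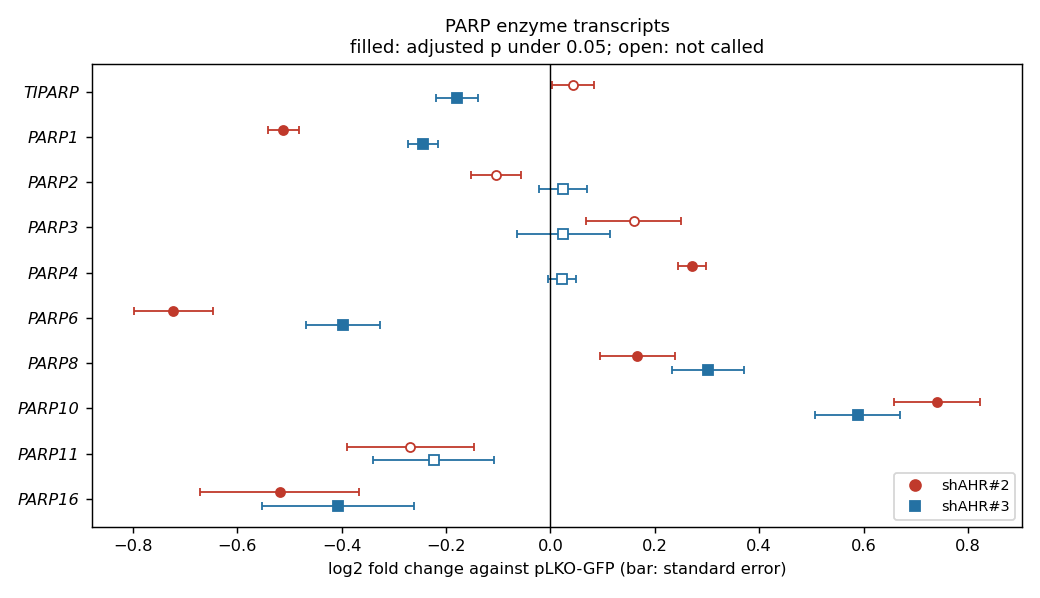
Log2 fold change of each member against pLKO-GFP (horizontal axis) for shAHR#2 (red circles) and shAHR#3 (blue squares), with standard errors as bars. Filled symbols passed an adjusted p of 0.05; PARP10 lies farthest to the right and PARP6 farthest to the left.

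By count, 6 of the 10 members passed the threshold with shAHR#2, 3 higher and 3 lower, where 65.8% of the 14274 genes tested passed (32.6% higher and 33.2% lower). For shAHR#3 the count was also 6 of 10, with 2 members above and 4 below the control, beside 54.4% of all genes (26.9% higher and 27.5% lower). Between the hairpins 5 members differed, 3 higher and 2 lower with shAHR#3, against 42.3% of all genes (21.9% higher and 20.4% lower). These shares are near the background, so the count of called members is not a result about the family. The median log2 fold change of the members was -0.03 with shAHR#2, -0.08 with shAHR#3 and 0.08 between the hairpins, beside medians of -0.003, -6.88e-05 and 0.007 over all genes tested. The median absolute log2 fold change of the members was 0.27 with shAHR#2 and 0.23 with shAHR#3, where that of all genes tested was 0.32 and 0.23. No member changed by as much as 1 on the log2 scale, but most genes tested did not either. With shAHR#2, 87.9% of genes changed by less than CDH1 did (0.997). With shAHR#3, 93.7% changed by less than FN1 did (1.07). The lack of large changes is thus not a result about the family.

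Per kilobase of the canonical GENCODE transcript, PARP1 had the highest level in the control at 68.7 ± 1.45 CPM per kilobase (SD, n = 3), followed by PARP4 (47.4 ± 0.839), PARP2 (32.3 ± 1.93), TIPARP (24.0 ± 0.859) and PARP6 (11 ± 0.219). PARP3, PARP10, PARP8, PARP16 and PARP11 came after, from 6.55 to 1.89 CPM per kilobase. Of neighbors in this order, PARP16 and PARP11 were the pair whose libraries overlapped. With shAHR#2 the top of the order was exchanged: PARP4 stood at 57.2 ± 0.334 CPM per kilobase and PARP1 at 48.2 ± 0.225, and their libraries did not overlap. PARP6 then lay level with PARP3 and PARP10, at 6.65, 7.33 and 6.79 CPM per kilobase with overlapping libraries. With shAHR#3 PARP1 again led PARP4, at 58.0 ± 1.38 and 48.2 ± 0.160 CPM per kilobase.

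**Figure D4:**
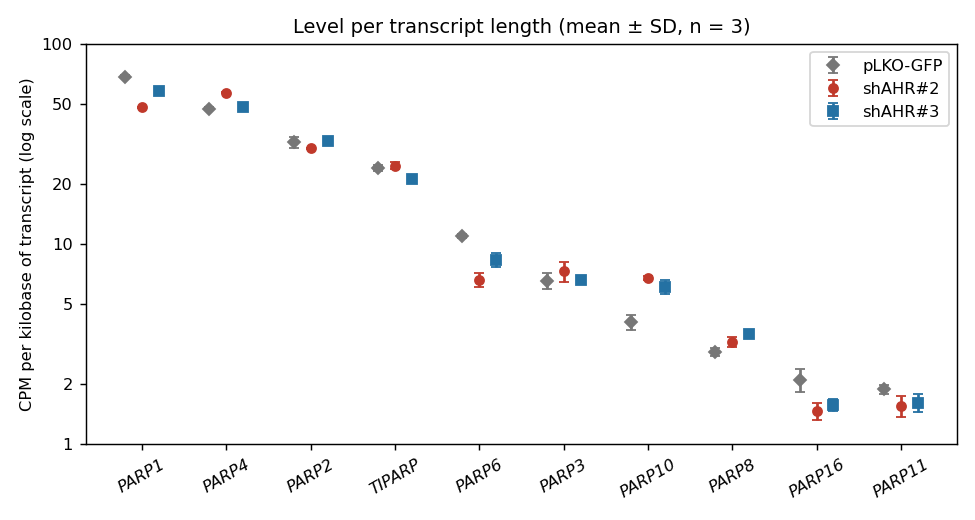
Level of each member in CPM per kilobase of canonical transcript (vertical axis, log scale), ordered by the control level (horizontal axis), as mean ± SD of 3 libraries per group. PARP4 is above PARP1 with shAHR#2 and below it in the control and with shAHR#3.

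The rest of the PARP family was measured beside the members: TNKS, TNKS2, PARP9, PARP12, PARP14, PARP15 and ZC3HAV1. Of these 7 genes, 3 rose and 1 fell with shAHR#2, while 5 rose and 1 fell with shAHR#3. The called shares were 57.1% and 85.7%, beside 65.8% and 54.4% of all genes tested. PARP15, a macrodomain PARP, changed most. It was read only 15, 5 and 15 times in the control libraries, 90, 70 and 86 times with shAHR#2 and 46, 60 and 63 times with shAHR#3. PARP15 passed the filter on low counts only with the hairpin libraries, since control replicate 2, at 5 reads, lay under the minimum. Its log2 fold changes were 3.00 (standard error 0.26, adjusted p = 9.20e-13) and 2.21 (standard error 0.28, adjusted p = 1.68e-08). PARP12, a zinc-finger PARP of the interferon response, was the member of this list that fell (-0.24 and -0.23, adjusted p = 0.00393 and 0.00437). PARP9 and PARP14, neighbors of PARP15 on chromosome 3 and also interferon-inducible, are named after their values were seen. They rose by 0.30 and 0.28 with shAHR#2 and by 0.25 and 0.40 with shAHR#3, though PARP9 was not called with shAHR#3 without control replicate 1 (adjusted p = 0.0508).

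Genes that work with PARP1 at strand breaks were divided. Of 12 tested, 4 rose and 4 fell with shAHR#2, and 2 rose and 4 fell with shAHR#3, with medians of -0.004 and -0.03 on the log2 scale. The called shares were 66.7% and 50%, near the 65.8% and 54.4% of all genes tested. HPF1, the cofactor that directs PARP1 and PARP2 to serine residues, fell most in both comparisons. It was at 37.0, 30.7 and 31.3 CPM in the control, 17.1, 17.0 and 17.1 with shAHR#2, and 20.5, 20.3 and 18.9 with shAHR#3, with no overlap. HPF1 was 51.8% ± 0.199 and 60.3% ± 2.55 of the control (SD, n = 3), log2 fold changes of -0.95 and -0.73 (standard errors 0.08 and 0.07, adjusted p = 1.39e-13 and 6.98e-11). It lies on chromosome 4, whose tested genes had medians of -0.30 and -0.22. The largest rises were those of TDP1, which clears trapped topoisomerase I, with shAHR#2 (0.38, adjusted p = 1.15e-09) and of APTX, which repairs abortive ligation ends, with shAHR#3 (0.24, adjusted p = 2.04e-04). XRCC1, the scaffold recruited by poly(ADP-ribose), is named after its values were seen. It went from 19.2, 13.7 and 18.1 CPM in the control to 9.55, 9.12 and 8.60 with shAHR#2, below every control (-0.90, adjusted p = 2.88e-09), and 14.2, 12.5 and 13.96 with shAHR#3 (-0.32, adjusted p = 0.00529), where it overlapped the control and was not called without control replicate 1 (-0.23, adjusted p = 0.0689).

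Of 8 genes that remove or trim ADP-ribose, 3 rose and 3 fell with shAHR#2, and 3 fell and none rose with shAHR#3. The called shares were 75% and 37.5%, beside 65.8% and 54.4% of all genes tested. By the rule for named genes, the largest changes with shAHR#2 were those of ADPRH (1.06, adjusted p = 0.0115) and MACROD2 (-1.03, adjusted p = 0.0347). Both were counted at no more than 26 reads per library, ADPRH was not called without shAHR#2 replicate 3 (adjusted p = 0.106), and the MACROD2 call was lost without any control library, without shAHR#2 replicate 2 or replicate 3, under DESeq2 and with no filter on low counts (adjusted p from 0.0513 to 0.142). With shAHR#3 the largest fall was that of OARD1, which removes ADP-ribose from glutamate (-0.34, adjusted p = 1.57e-06), while with shAHR#2 it was at 0.00 (adjusted p = 0.981). PARG, the main hydrolase of poly(ADP-ribose) chains, is named after its values were seen. It was at 59.6, 61.0 and 61.0 CPM in the control, 37.6, 37.1 and 38.5 with shAHR#2, and 49.8, 48.2 and 47.8 with shAHR#3. PARG fell by 0.68 with shAHR#2 (adjusted p = 5.28e-15) and by 0.32 with shAHR#3 (adjusted p = 2.65e-07), in log2 units, and its groups did not overlap. It lies on chromosome 10, whose tested genes had medians of -0.32 and -0.15. NUDT16, of the same list and also named after its values were seen, had log2 fold changes of -0.69 and -0.34.

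Among genes that supply NAD+, 8 of 11 were tested. With shAHR#2, 4 rose and 1 fell, and with shAHR#3, 4 rose and 3 fell. The called shares were 62.5% and 87.5%, beside 65.8% and 54.4% of all genes tested. NMNAT2, a cytosolic enzyme that makes NAD+ from its mononucleotide, had the largest rise with either hairpin (0.71 and 0.79, adjusted p = 1.22e-13 and 6.54e-15). NADK2, the mitochondrial NAD kinase, had the largest fall (-1.05 and -0.80, adjusted p = 2.00e-16 and 1.92e-13). It lies on chromosome 5, described above for PARP8. NAMPT, the rate-limiting enzyme of NAD+ salvage, is named after its values were seen. It was at 428, 430 and 415 CPM in the control, rose to 502, 496 and 487 with shAHR#2 (0.22, adjusted p = 5.35e-09) and fell to 366, 372 and 347 with shAHR#3 (-0.23, adjusted p = 3.62e-09). No group overlapped another, and the hairpins differed by -0.45 (adjusted p = 1.47e-16). The called shares of these 4 lists, from 57.1% to 75.0% with shAHR#2 and from 37.5% to 87.5% with shAHR#3, stood on either side of the shares of all genes given above.

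**Figure D5:**
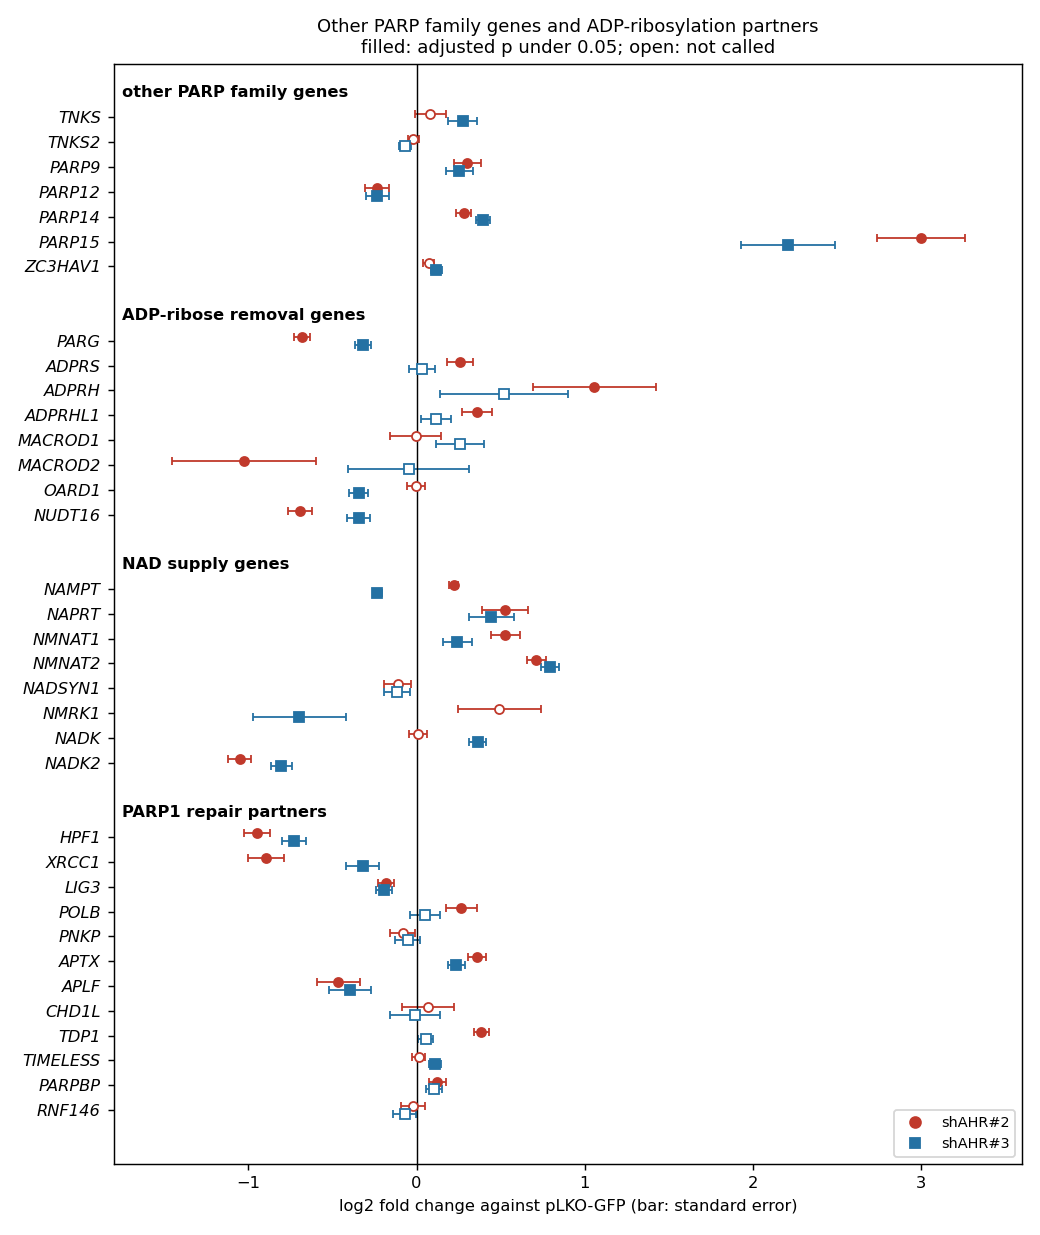
Log2 fold change against pLKO-GFP (horizontal axis) for the 4 lists of related genes, with shAHR#2 as red circles and shAHR#3 as blue squares and standard errors as bars. Filled symbols passed an adjusted p of 0.05; PARP15 lies farthest to the right, and HPF1, PARG and NADK2 lie to the left of 0 with both hairpins.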

How the data were processed

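Total RNA of 9 MDA-MB-231 libraries was made into stranded mRNA libraries, sequenced from a single end on an Illumina NextSeq and aligned by the authors to GRCh38.p13 with STAR. The deposited values are raw read counts per gene. The submitters' processing notes also name featureCounts, Subread and FastQC, without versions. The annotation release and the strand setting are not given in the sources used here.

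Everything after the counts was computed with R 4.3.3 and edgeR 4.0.16: filterByExpr (minimum count 10, minimum total 15), which kept 14274 of 60649 genes, TMM scaling, and the quasi-likelihood test in a single fit of the 9 libraries, with group as the only term. A gene was called where its Benjamini-Hochberg adjusted p over all genes tested was below 0.05. Standard errors were the size of the log2 fold change over the square root of F. The common biological coefficient of variation was 2.96%. No library was a copy of another, the chi-square of replicate pairs being 1.75 to 4.12 for each degree of freedom. Fits were tested on simulated data.

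Members and lists were chosen with earlier results of these data known. Named by rule were all members, AHR and its targets, the largest rise and fall called in each list and comparison, and the 3 genes most like TIPARP and PARP1 (smallest root mean square difference of control-centred log2 CPM, mean of at least 5 CPM). PARP9, PARP14, XRCC1, PARG, NUDT16 and NAMPT were named outside this rule, after their values were seen. Positions and transcript lengths are those of GENCODE release 44, in which 60507 of 60649 identifiers were found. Alternatives were DESeq2 1.42.0, edgeR with the size factors of DESeq2, all genes with any read, genes averaging 50 or more counts, a fit of only the groups compared, a replicate block, each library left out, and a further requirement of 1 log2 unit of change. Figures were drawn with matplotlib 3.10.9 in Python 3.11.15.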

Additional observations from a re-analysis of the deposited data

Results flagged for a closer look

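For 5 members the effect of one hairpin differed from that of the other in edgeR's direct test of shAHR#3 against shAHR#2. On the log2 scale the difference, shAHR#3 minus shAHR#2, was -0.223 for TIPARP, 0.267 for PARP1, 0.128 for PARP2, -0.248 for PARP4 and 0.325 for PARP6. All 3 shAHR#3 libraries lay beyond all 3 shAHR#2 libraries in the stated direction for each of these genes. The genes were picked by that test on the same libraries, and it called 42.3% of all genes tested. Their separation is therefore no further evidence. CYP1A1 and CYP1B1 were higher with shAHR#3 than with shAHR#2, by 1.24 and 2.21, while TIPARP and PARP4 were lower. AHR itself was higher with shAHR#3 by 0.19 (adjusted p = 0.00283). Of 15 refits, 1 lost this call (adjusted p = 0.0626), and leaving out 1 library brought the difference as low as 0.13. What sets the hairpins apart at these genes was not tested.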

How the results depend on the processing

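Of the members' fold changes recomputed under the alternatives, 428 kept their side of the threshold, 11 lost the call, 11 gained it and 0 reversed a called direction. Leaving out 1 library gave 5 to 8 members called with shAHR#2, 5 to 7 with shAHR#3 and 4 to 6 between the hairpins. Requiring 1 log2 unit of change, which most genes tested did not reach, left 0 members in each comparison. It left 1 of the other PARP family genes with either hairpin and 0 between them, 2, 0 and 0 of the ADP-ribose genes, 1, 0 and 1 of the NAD+ genes, and 0 repair partners in each. Between the hairpins, DESeq2 called 1 other family gene and 2 repair partners against 2 and 5 in the main fit. The main counts are 28.6% and 41.7% of their lists, beside 42.3% of all genes tested. In the same comparison, leaving out 1 library gave 1 to 2 other family genes, 3 to 6 ADP-ribose genes and 2 to 5 repair partners. Deviations of same-numbered libraries were at most weakly correlated (-0.006 to 0.056). The labels do not say whether the numbers pair the libraries, and low correlations cannot settle it. With the replicate block, 7, 6 and 5 members were called, PARP11 joining with shAHR#2 (-0.28, adjusted p = 0.0399), and the block changed no other member's call. With shAHR#3, PARP11 passed without shAHR#3 replicate 1 (adjusted p = 0.0493). PARP10 differed between the hairpins without shAHR#3 replicate 3 (-0.22, adjusted p = 0.0299). At the 58 to 116 reads per library of PARP16, the standard error was 0.15, and changes of -0.32 and -0.35 were not called when 1 library was left out.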
